A study of Caenorhabditis elegans with 3 samples.

Results

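The hemidesmosome genes of the C. elegans epidermis examined here were let-805, mup-4, mua-3, vab-10, pat-12, vab-19, ifb-1 and ifa-3. They were chosen by name, for the structure they build, and make up 8 of the 19973 protein-coding genes on the 6 nuclear chromosomes. The peaks come from chromatin immunoprecipitation and sequencing (ChIP-seq) of ELT-3, a GATA-type zinc-finger transcription factor of the epidermis, in whole L1 larvae. All larvae, recorded as male and female pooled, were of strain OP75, which carries unc-119(ed3) III and the transgene wgIs75. The transgene gives a stable line that makes ELT-3 with GFP and FLAG fused to its C-terminus. There was 1 group, with 2 biological replicates and 3 libraries, since replicate 1 holds 2 technical libraries merged into 1 alignment. With 1 group, no condition was compared and no test between groups was possible. Because whole animals were used, the tissue in which a peak arose cannot be told apart from the others. The files list peaks and give no read counts, so the depth behind each value is unknown.

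Hemidesmosomes, called fibrous organelles in C. elegans, are attachment structures on the basal and apical faces of the epidermis. Intermediate filaments join both faces, so that the pull of the body-wall muscle reaches the cuticle through the thin epidermal cell. Transmembrane receptors hold the structure to the matrix on either side, and linker proteins tie the receptors to the filaments.

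Of the 8 genes, 7 held at least 1 peak summit of the authors' thresholded list in a promoter, within 3 kb upstream of a transcript start or in an intron, against 23.9% of all protein-coding genes. The promoter ran from 1000 bp upstream to 200 bp downstream of any annotated transcript start. The 14 summits fell at vab-10 (5), let-805 (2), mup-4 (2), vab-19 (2), mua-3 (1), pat-12 (1) and ifb-1 (1), and ifa-3 had none. No summit lay in an exon of any gene or in the promoter or intron of another protein-coding gene. At all 14 summits the closest transcript start of a protein-coding gene was that of the hemidesmosome gene itself. By the rule used, an intron summit lies in no exon of its own gene. The same counts were not made over all thresholded peaks, so they do not set these genes apart.

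The DNA around 7 of these summits is shown first, because the letters, the position and the signal of each site are read together below. Each run is 101 bases of WBcel235 (ce11) centred on the summit and reads 5′ to 3′ along the gene's strand. Capitals mark either WGATAR, the core recognised by GATA factors (W stands for A/T and R for A/G), or the repeat GAGAGA, both sought on either strand. A reverse match therefore reads TTATCA or CTATCA for WGATAR, and TCTCTC for GAGAGA. The first 4 runs hold WGATAR, the promoter of mup-4 and the intron of pat-12 hold only the repeat, and the intron of mua-3 holds neither.
let-805, ahead of its internal start (chrIII:2676204-2676304, plus strand): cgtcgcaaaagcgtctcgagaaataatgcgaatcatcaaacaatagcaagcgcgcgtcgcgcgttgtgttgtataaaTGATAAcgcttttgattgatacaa
mup-4, first intron (chrIII:7488446-7488546, minus strand): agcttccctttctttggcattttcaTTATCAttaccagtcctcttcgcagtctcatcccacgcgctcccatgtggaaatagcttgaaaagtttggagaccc
vab-19, promoter (chrII:2442445-2442545, plus strand): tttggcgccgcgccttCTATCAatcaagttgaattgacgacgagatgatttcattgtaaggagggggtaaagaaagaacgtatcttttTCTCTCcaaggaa
vab-19, farther upstream (chrII:2441851-2441951, plus strand): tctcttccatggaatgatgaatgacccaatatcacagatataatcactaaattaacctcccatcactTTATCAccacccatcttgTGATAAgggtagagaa
mup-4, promoter (chrIII:7489275-7489375, minus strand): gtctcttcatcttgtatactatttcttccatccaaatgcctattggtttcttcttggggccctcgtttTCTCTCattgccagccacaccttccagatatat
pat-12, first intron (chrIII:750199-750299, minus strand): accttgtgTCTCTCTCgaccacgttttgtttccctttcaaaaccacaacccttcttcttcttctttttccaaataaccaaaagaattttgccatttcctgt
mua-3, intron 13 (chrIII:10170393-10170493, plus strand): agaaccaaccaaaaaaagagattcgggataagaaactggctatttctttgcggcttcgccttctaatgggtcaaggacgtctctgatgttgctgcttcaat

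**Figure D1:**
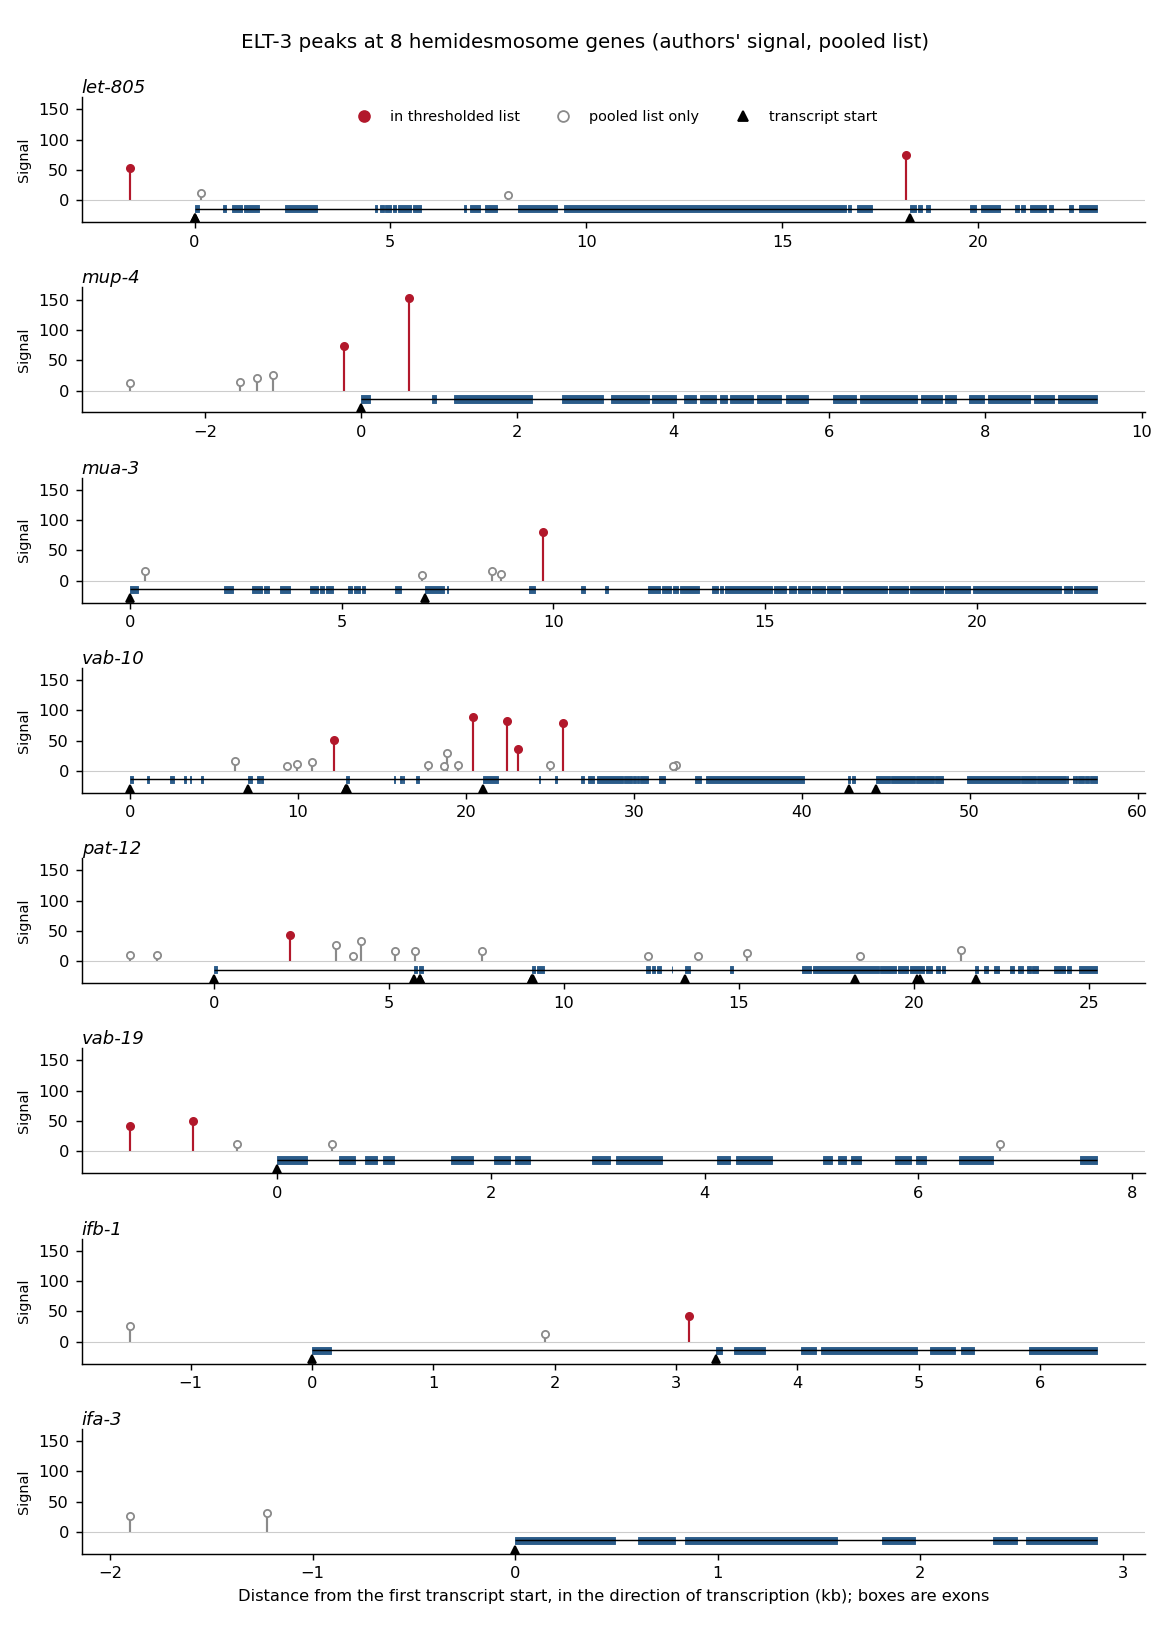
Peaks of the pooled list at the 8 genes, with distance from the first transcript start in kb on the x axis and the authors' signal on the y axis; filled points are in the thresholded list, open points are not, boxes are exons and triangles are transcript starts. The tallest point, at 153, stood in the first intron of mup-4, and ifa-3 had only open points, the taller at 31.9.

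The receptors held 5 of the 14 peaks, the strongest among them. The gene mup-4 (WBGene00003497, chrIII:7479680-7489105, minus strand) encodes an apical transmembrane protein that attaches the epidermis to the cuticle. Its intronic summit, at position 7488496, lay 609 bp downstream of the only annotated start, in the first intron of 790 bp. The peak (chrIII:7488388-7488550) had a signal of 153, which ranked 209 of the 4530 thresholded peaks, and it was the only one of the 14 among the strongest 453. Its signal was 74.5 in replicate 1 and 83.2 in replicate 2, ranks 367 and 189 in those lists. The site thus stood near the top in both replicates, and their summits lay 2 and 19 bp from the pooled one. The signal is the authors' own value on a scale that is not stated, so it was used only to rank peaks within a list. Ranks in lists of different lengths do not measure a change.

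A second mup-4 peak (chrIII:7489165-7489484) had its summit in the promoter, 220 bp upstream of the start. It had a signal of 73.1 in the thresholded list (rank 1597), 51.2 in replicate 1 (rank 1107) and 37.9 in replicate 2 (rank 1419). The intronic site was therefore the stronger of the pair in every list. The sequences above differ too, with TTATCA 20 bp from the intronic summit and no WGATAR within 50 bp of the promoter summit, where the nearest was 115 bp away.

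The gene let-805 (WBGene00002915, chrIII:2658083-2681112, plus strand) encodes myotactin, a transmembrane protein of the basal face that holds the epidermis to muscle. Its stronger peak (chrIII:2676094-2676413) had a signal of 74.4 (rank 1533), with 41.7 in replicate 1 (rank 1667) and 34 in replicate 2 (rank 1754). This summit lay 97 bp upstream of the start of the short transcript H19M22.2c.1 and inside the eighteenth intron of the long transcript H19M22.2b.1. A TGATAA stood 27 bp from it. The weaker peak (chrIII:2656274-2656593) lay 1649 bp upstream of the first start and had a signal of 52.9 (rank 2721), with 32.7 in replicate 1 (rank 2532) and 19.7 in replicate 2 (rank 3866). The summit nearest the internal start was higher than that nearest the first start in all 3 lists. In the promoter of the first start itself the pooled list had only a peak of signal 11.6, rank 15484 of 26508, 156 bp downstream.

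The gene mua-3 (WBGene00003482, chrIII:10160697-10183529, plus strand) encodes a second apical transmembrane protein of the attachment to the cuticle. Its only thresholded peak (chrIII:10170283-10170602) had a signal of 80.1 (rank 1356) and lay in intron 13, 2768 bp downstream of the internal start of K08E5.3b.1 and 9746 bp downstream of the first start. In replicate 1 the signal was 70 (rank 467), and in replicate 2 no peak overlapped it. The site was thus found in 1 replicate only, as was that of ifb-1 below. No WGATAR lay within 50 bp of the thresholded mua-3 summit, the nearest being 62 bp away, but 1 lay within 50 bp of the replicate 1 summit.

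Among the linkers, vab-10 (WBGene00006876, chrI:11747424-11804991, minus strand) held 5 of the 14 peaks. It encodes a spectraplakin, a very large cytoskeletal linker, and was the longest of the 8 genes at 57568 bp, with 14 annotated transcripts from 8 starts. All 5 summits lay in introns, and 2 of these were also in promoters of internal starts. The strongest (chrI:11784393-11784712) lay 614 bp upstream of the start shared by ZK1151.1i, ZK1151.1l and ZK1151.1m, with a signal of 88.4 (rank 1088), 53.5 in replicate 1 (rank 1008) and 28.9 in replicate 2 (rank 2234). The other promoter summit (chrI:11792683-11793002), 718 bp upstream of the start of ZK1151.1e, had a signal of 50.3 (rank 2934), 26.6 in replicate 1 (rank 3380) and 28.2 in replicate 2 (rank 2335). Both stood among the strongest 4530 peaks of each replicate.

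The other 3 vab-10 summits lay 1377, 2069 and 4743 bp downstream of the shared internal start. The site at 1377 bp had a signal of 83.2 (rank 1256), 50.3 in replicate 1 (rank 1148) and 35.4 in replicate 2 (rank 1623). The site at 4743 bp had a signal of 79.5 (rank 1373), 27.9 in replicate 1 (rank 3164) and 45.5 in replicate 2 (rank 985). It stood higher in replicate 2, and its 101 bases held 7 GAGAGA matches, overlapping matches counted each, and the only CTGCGT among the 14 sites, a 6-base sequence found at 12% of all thresholded peaks. The site at 2069 bp was the weakest of the 14, with a signal of 35.7 (rank 4472), 35.1 in replicate 1 (rank 2248) and 10.2 in replicate 2 (rank 10706). It was the only vab-10 site with WGATAR within 50 bp of the thresholded summit. This depended on the summit used. The replicate 1 summit of the same site had none within 50 bp, and the site at 1377 bp had 1 at its summit in each replicate. No thresholded summit stood near the first vab-10 start, where the closest was 12148 bp downstream.

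The gene pat-12 (WBGene00003936, chrIII:727207-752426, minus strand) encodes a protein associated with the fibrous organelles and has 19 annotated transcripts from 12 starts. Its thresholded peak (chrIII:750089-750408) lay in the first intron of T17H7.4j.1, 2177 bp downstream of the first start, with a signal of 43 (rank 3630). Replicate 1 had 34.1 there (rank 2362) and replicate 2 had 8.33 (rank 15448), far down its list of 27330. The pooled list held 13 further pat-12 peaks, the strongest with a signal of 34.1 (rank 4678). That peak was the first of the 8 genes' peaks below the authors' threshold, and the vab-10 peak of signal 35.7 was the last above it.

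The gene vab-19 (WBGene00006882, chrII:2443279-2450947, plus strand) encodes an ankyrin-repeat protein of the Kank family that is needed for epidermal attachment. It was the only one of the 7 genes with peaks that had none in an intron. The promoter peak (chrII:2442335-2442654), 784 bp upstream of the single start, had a signal of 49.9 (rank 2966), 29.2 in replicate 1 (rank 2981) and 30.8 in replicate 2 (rank 2039). The farther peak (chrII:2441741-2442060), 1378 bp upstream, had a signal of 42.7 (rank 3659), 22.6 in replicate 1 (rank 4043) and 13.7 in replicate 2 (rank 6404). Both held WGATAR within 50 bp, and the weaker held 2 matches of it, as shown in the sequences above.

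The filament genes held 1 of the 14 peaks. The gene ifb-1 (WBGene00002053, chrII:5765618-5772084, plus strand) encodes a cytoplasmic intermediate filament protein of the epidermis. Its peak (chrII:5768562-5768881) lay 223 bp upstream of the internal start of F10C1.2a.1, in the first intron of F10C1.2b.1, with a signal of 42.8 (rank 3650). Replicate 1 had 28.5 there (rank 3082), and no replicate 2 peak overlapped it. The nearest WGATAR was 47 bp from the thresholded summit and did not lie wholly within 50 bp, but 1 lay wholly within 50 bp of the replicate 1 summit.

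The gene ifa-3 (WBGene00002051, chrX:16267197-16270069, minus strand) encodes another intermediate filament protein. It is the shortest of the 8 genes at 2873 bp and had no thresholded summit. The pooled list held 2 peaks upstream of it. The nearer, 1225 bp upstream, had a signal of 31.9 (rank 5032), 8.33 in replicate 1 (rank 10786) and 18.7 in replicate 2 (rank 4182). The farther, 1902 bp upstream, had a signal of 26.1 (rank 6094), 11.9 in replicate 1 (rank 7527) and 8.71 in replicate 2 (rank 14188). The nearer one would thus fall among the strongest 4530 peaks of replicate 2 but not of replicate 1.

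**Figure D2:**
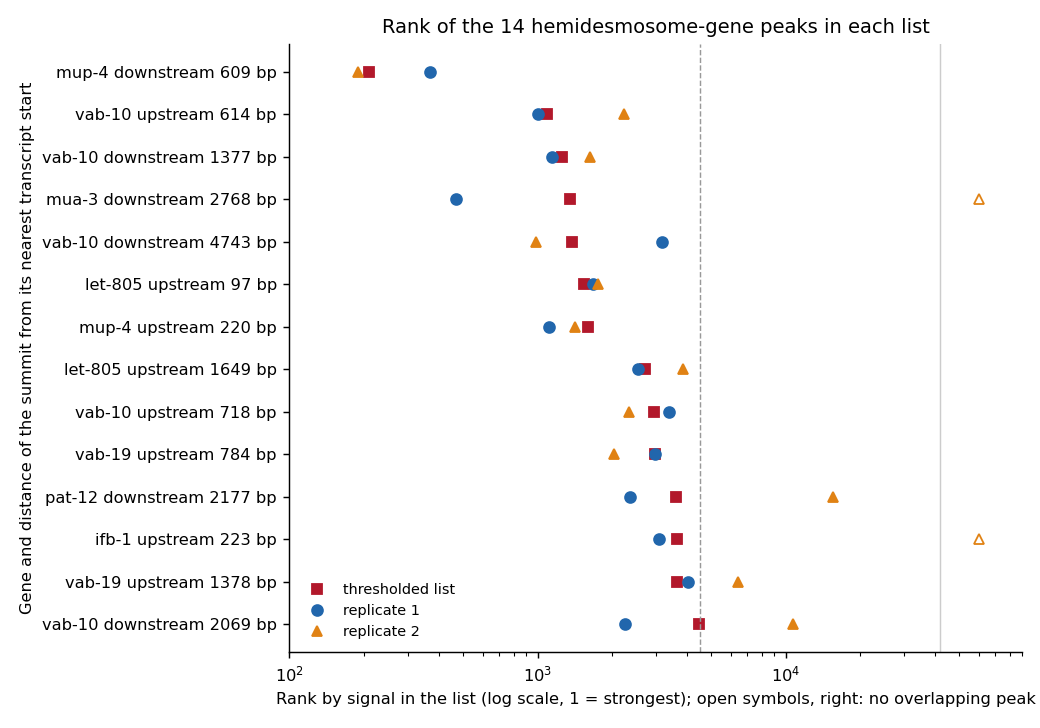
Rank by signal, on a log scale with 1 the strongest, of the 14 peaks in the thresholded list and in each replicate's list; the dashed line is the length of the thresholded list, and open symbols mark sites with no overlapping peak. All replicate 1 points lie left of the line, and the replicate 2 points of mua-3 and ifb-1 are open.

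Across the replicates, all 14 sites overlapped a replicate 1 peak and 12 overlapped a replicate 2 peak, against 99.7% and 96.3% of all thresholded peaks. The thresholded list was itself derived from the pooled and both replicate lists, so such overlap is not independent replication. All 14 overlapped the strongest 4530 peaks of replicate 1, against 82.8% of all, and 9 overlapped those of replicate 2, against 77.2%. Of the 12 sites found in both, 8 ranked better in replicate 1. Their median rank was 2305 in replicate 1 (n = 14) and 2136.5 in replicate 2 (n = 12), against 2279 and 2219 for all thresholded peaks.

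Promoter summits were found at 5 of the 8 genes (let-805, mup-4, vab-10, vab-19 and ifb-1), or 62.5%, against 15.5% of all protein-coding genes. The same 5 had a summit within 3 kb upstream, against 22.7%. An intron summit was found at 6 genes (let-805, mup-4, mua-3, vab-10, pat-12 and ifb-1), or 75%, against 3.82%. The 3 regions overlap, so these shares are not independent. All 6 promoter summits also lay within 3 kb upstream of a start, and 4 of them also lay in an intron. At ifb-1 the same peak counted in all 3 regions. In the strongest 4530 peaks of replicate 1 alone, promoter summits were found at 5 of the 8 genes, against 15.8%, and upstream summits at 6, against 23.2%. In those of replicate 2 alone, promoter summits were found at 4, against 14.1%, and upstream summits at 5, against 21%. In the same replicate 2 peaks, intron summits were found at 3 of the 8 genes, against 3.9%, and mua-3, pat-12 and ifb-1 had none. In those of replicate 1 alone the intron count was 6, against 3.71%. The choice of genes was made with earlier results of these data known, so these shares carry no test.

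**Figure D3:**
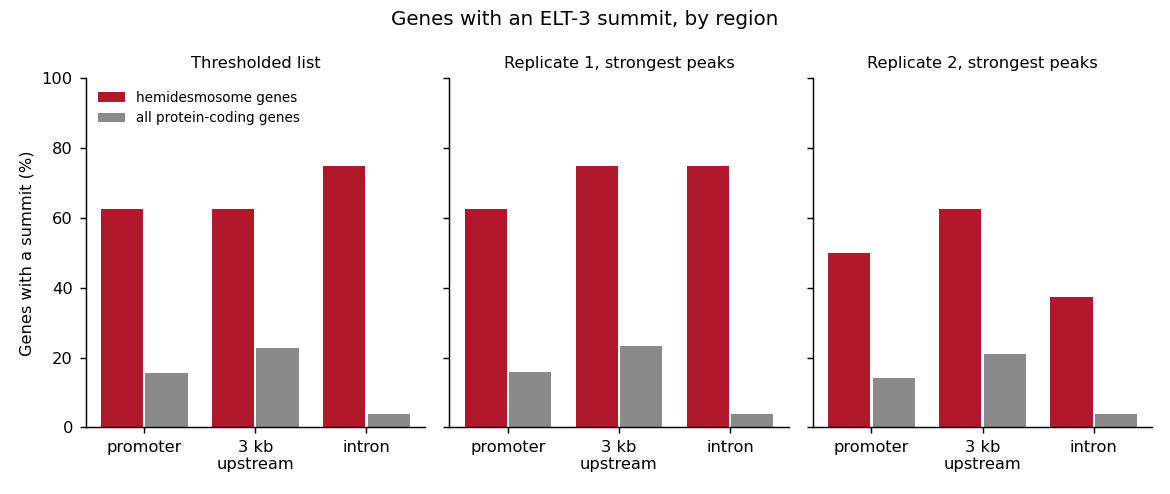
Percent of the 8 hemidesmosome genes (red) and of all protein-coding genes (grey) with a summit in each region, for the thresholded list and for equally many of the strongest peaks of each replicate. The red intron bar stands at 75% in the thresholded list and in replicate 1, and lower in replicate 2, where 3 of 8 genes had an intron summit.

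Gene length moved with these shares. The median length of the 8 genes was 16129.5 bp, against 2027 bp for all protein-coding genes, and 5 of the 8 had 2 or more annotated starts. Among genes of 5 kb or more, 7 of the 8 qualified: 5 had a promoter summit, against 21.2%, 5 an upstream summit, against 31.5%, and 6 an intron summit, against 14.4%. The limit of 5 kb is a floor and does not match the genes for length or number of starts. The 7 genes ran from 6467 to 57568 bp. Among genes with 2 or more starts, 3 of the 5 hemidesmosome genes had a promoter summit, against 23.3%. Per 100 kb of intron, the 8 genes held 11.9 summits (10 in 83873 bp), against 3.35 over all protein-coding genes. Without vab-10 the value was 9.92, from 5 summits. At least 5 intron summits were found in 26 protein-coding genes, vab-10 among them.

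Position relative to alternative starts was shared by several of the genes. At let-805, vab-10 and ifb-1, 3 of the 5 genes with a promoter summit, a promoter summit lay inside an intron of a longer transcript. Over all 3092 genes with a promoter summit, 10.4% had one in any intron of the gene. Of those 3092 genes, 1276 had 2 or more starts, as all 3 of these genes do, so the shares are not like for like. At each of the 3 genes the promoter belonged to an internal start, and the first start had no thresholded promoter summit. At mup-4 and vab-19, which have a single annotated start each, the promoter summit lay ahead of it.

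Within 50 bp of the summit, WGATAR was found at 5 of the 14 sites (let-805, mup-4, vab-10 and both at vab-19), or 35.7%, against 37.8% of all thresholded peaks. In the same width of DNA 500 bp to either side, it was found in 8 of 28 windows, or 28.6%, against 20.9% for all peaks. These windows are not all free of peaks. At vab-19 a window of each site fell within the peak of the other. The form TGATAA was found at 4 of the 14 sites, against 22.2% of all. Among the promoter summits 2 of 6 had WGATAR, against 31.5%, and among the others 3 of 8, against 46.3%. The share at the hemidesmosome genes was near that of all peaks in the thresholded list. With the strongest 4530 peaks of replicate 1 alone, 8 of 16 summits had it, or 50%, against 31.8% of those peaks. With those of replicate 2 alone, 4 of 11 had it, or 36.4%, against 40.4%.

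The repeat GAGAGA was found at 7 of the 14 sites, or 50%, against 24.6% of all thresholded peaks. In the windows 500 bp away, which are not all free of peaks, it was found in 2 of 28, against 5.52%. It was sought because it had been noticed at peaks in these data, and its share among 14 sites from 7 genes was not tested. The sites included 3 of vab-10, and 1 each of mup-4, let-805, pat-12 and vab-19. The median GC content within 50 bp was 42.6% at the 14 sites and 42.6% at all thresholded peaks. A match describes the letters of the window and not binding to them.

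**Figure D4:**
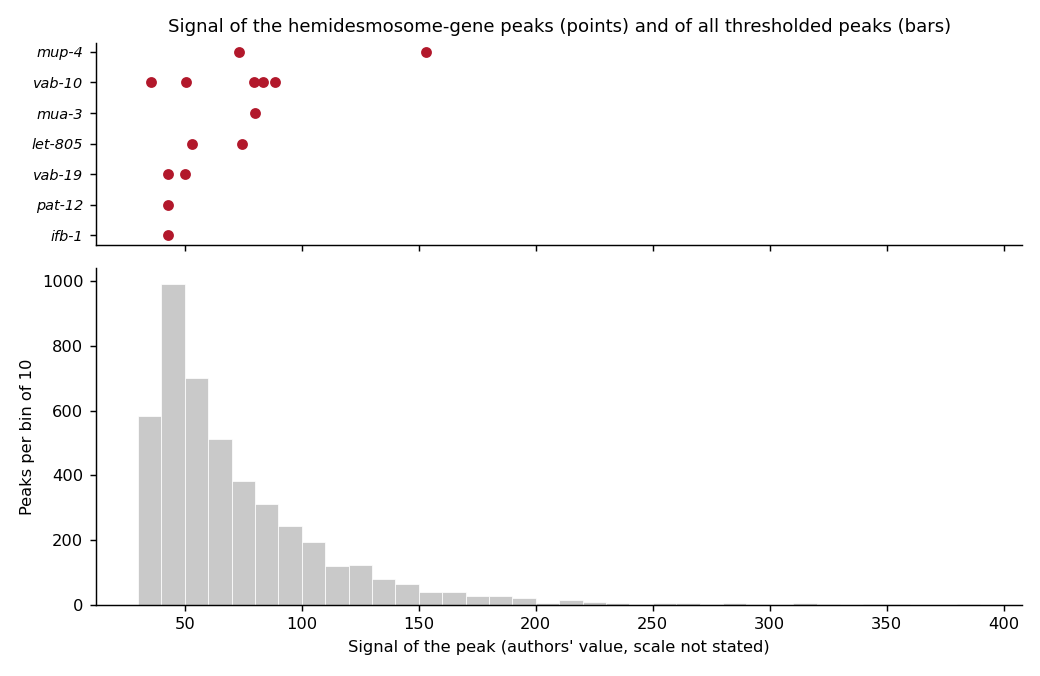
Authors' signal of the 14 peaks by gene (points) above the number of all thresholded peaks per bin of 10 (bars). Apart from the mup-4 intron peak at 153, the points lie between 35.7 and 88.4, where most bars are.

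The signals were otherwise ordinary for the list. The median was 63 over the 14 sites and 59.9 over all thresholded peaks, which ran from 35.2 to 382, and 7 of the 14 stood in the stronger 2265. The largest deposited −log10 q of the list, 3.86, was reached at 10 of the 14 sites and at 79.1% of all peaks, so it did not order them.

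The pooled list held 55 peaks in the 3 regions of the 8 genes, 41 of them below the authors' threshold. In that list 7 genes had a promoter summit, against 41.9% of all protein-coding genes, all 8 an upstream summit, against 58.2%, and 7 an intron summit, against 23%. The background was therefore much higher in the relaxed list.

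A list of 41 genes with related roles was set beside the 8 hemidesmosome genes. Its 5 role groups were other intermediate filaments, spectrin and signalling proteins, basement membrane proteins, integrin adhesion of muscle and apical matrix proteins. The list follows these roles, and its genes were not checked for expression in the epidermis. Its shares thus do not describe epidermal attachment genes alone. A thresholded promoter summit was found at 8 of the 41, or 19.5%, against 15.5% of all protein-coding genes. With the strongest peaks of replicate 2 alone, 3 of the 41 had one, or 7.32%, against 14.1%, so the order of the shares turned round. A thresholded upstream summit was found at 14 of the 41, or 34.1%, against 22.7%. With replicate 1 alone the count was 19, or 46.3%, against 23.2%, and with replicate 2 alone 8, or 19.5%, against 21%. An intron summit was found at 3 of the 41 (mua-6, unc-52 and him-4), or 7.32%, against 3.82%. Any of the 3 regions held a summit at 16 of the 41, or 39%, against 23.9%. With replicate 1 alone the count was 21, or 51.2%, against 24.5%, and with replicate 2 alone 11, or 26.8%, against 22.3%. Among 9 other intermediate filament genes, mua-6 alone had a promoter summit, of signal 40.3 (rank 3902). Of 8 spectrin and signalling genes 3 had one: git-1, a GIT-family adaptor, at 85.5 (rank 1170, in a promoter shared with mboa-7), spc-1, an alpha spectrin, at 66.4 (rank 1928), and pix-1, a PIX-family partner of GIT proteins, at 51 (rank 2877). Of 9 integrin-adhesion genes 2 had one, ina-1, an integrin alpha chain, at 43.2 (rank 3611) and pat-4, the integrin-linked kinase, at 37.5 (rank 4241). Of 6 apical matrix genes, sym-1 had 41.9 (rank 3737) and noah-1 had 41.5 (rank 3776). No replicate 2 peak overlapped the pat-4 or the noah-1 promoter peak. None of 9 basement-membrane genes had a promoter summit. Intron summits were found at 2 of those 9, with 2 at unc-52, which encodes perlecan, and 1 at him-4, which encodes hemicentin.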

How the data were processed

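The authors deposited peak lists of ELT-3 ChIP-seq. Of these, 4 lists on ce11 were used: a relaxed list for each biological replicate, a relaxed list of the pool and a thresholded list derived from them. The 4 ce10 lists were not used. Each peak has the authors' signal, a deposited −log10 q-value and a summit. What aligner and peak caller were used, and the signal's scale, is not given in the sources used here. Reads and controls were not analysed here. All 4530 thresholded peaks were found unchanged in the pooled list, and peaks were ranked by signal.

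Summits were assigned with Ensembl release 115 gene models and WBcel235 sequence from RefSeq, in Python 3.11.15 with numpy 2.4.6 and pandas 2.3.3. Peaks of different lists were matched by an overlap of at least 1 bp. A motif had to lie wholly within 50 bp of the summit, and coordinates are given from 1. The steps were checked on simulated data. The genes and lists were chosen with earlier results of these data known. All 8 genes are named, with up to 3 of the strongest of each role group. Alternatives covered each replicate alone (its strongest 4530 peaks), stricter and relaxed lists, any overlap, and other promoter, upstream and motif windows. The shares over all genes or peaks under the alternatives were added after seeing the data. So were the related genes' upstream, intron and any-region counts under the alternatives.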

Additional observations from a re-analysis of the deposited data

How the results depend on the processing

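With the strongest 4530 peaks of either replicate alone, the genes with a promoter summit numbered 4 to 5, with an upstream summit 5 to 6 and with an intron summit 3 to 6. The summits numbered 11 to 16 and those with WGATAR 4 to 8. Of the 41 related genes, 3 had a promoter summit with replicate 2 alone, against 14.1% of all protein-coding genes. With replicate 1 alone 10 had one, against 15.8%. The low intron and related-gene counts came with replicate 2 alone, and the high WGATAR count with replicate 1 alone. In the stronger 2265 thresholded peaks, promoter and upstream summits were found at 3 of the 8 genes each, against 8.35% and 12.9% of all protein-coding genes, and promoter summits at 2 of the 41 related genes. There were 7 summits, 2 of them with WGATAR, against 40% of those peaks. In the relaxed pooled list, upstream summits were found at 8 genes, against 58.2%, and promoter summits at 20 related genes, against 41.9%. There were 55 summits, 14 of them with WGATAR (25.5%, against 25.5%). A promoter of 500 bp upstream to 100 bp downstream left 3 of the 8 genes (let-805, mup-4 and ifb-1) and 4 of the 41 related genes, against 12.4% of all protein-coding genes. WGATAR was found at 10 of the 14 sites within 100 bp of the summit, against 55.6% of all thresholded peaks, and at 2 within 25 bp, against 21.3%. Beyond the wider or narrower windows and lists themselves, the cause was not tested. All other counts for the 8 genes, and the related genes' other promoter counts, stayed within 1.5 times of those reported. The related genes' upstream and any-region counts moved further. In the stronger 2265 peaks they were 5 and 7 of 41, against 12.9% and 13.7% of all protein-coding genes. In the pooled list they were 32 and 35, against 58.2% and 63.6%. Their intron count in the pooled list was 16, against 23%. No paired analysis was possible because there is 1 group and no test. With peak lists only, the depth is unknown, and 2 replicates limit what the ranks can show.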
